A study of Mus musculus with 71 samples.

Results

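The Dlk1-Dio3 domain is a stretch of mouse chromosome 12 whose genes are expressed from 1 parental copy. The 6 genes followed here are Meg3, Rian, Mirg, Dlk1, Rtl1 and Dio3. They were chosen by symbol, with earlier results of these data known, from the 24222 genes of the count tables, and 6 of 6 were found. RNA was sequenced from mouse embryonic stem (ES) cells of strain C57BL/6 in 3 groups of 3 libraries. Wild-type cells (WT) carry Ezh1 and Ezh2, either of which can serve as the methyltransferase of the Polycomb complex PRC2. The group labelled Ezh1/Ezh2 dKO (dKO) is, by its label, a double knockout of these genes, and the group labelled EZH2 rescue (rescue) has, by its label, wild-type EZH2 put back. The culture dishes were coated with gelatin and the medium was 2i, which keeps pluripotency naive, and polyA RNA was sequenced. The labels do not say how many clones a group stands for, nor whether replicates were cultured apart, so the p-values rest on the spread among these libraries, and that spread may be technical. The other 62 samples of the series are chromatin immunoprecipitations, and among them only 1, a peak list for Suz12 in 129B6F1 wild-type cells, was used.

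In imprinted domains the maternal and the paternal copy of a gene carry different DNA methylation, and only 1 copy is read. In this domain the noncoding RNAs Meg3 (also called Gtl2), Rian and Mirg come from the maternal copy, and the protein genes Dlk1, Rtl1 and Dio3 come mainly from the paternal copy. A control region between Dlk1 and Meg3, methylated on the paternal copy, sets this pattern. The noncoding RNAs host clusters of small nucleolar RNAs and microRNAs, and their silencing is a known variation among pluripotent cell lines. PRC2, which methylates lysine 27 of histone H3, has been linked to Meg3 in earlier work, both as a partner of the RNA and as a complex that helps to keep the maternal RNAs expressed in ES cells. The counts analysed here do not separate the parental copies.

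The domain, from the start of Dlk1 to the end of Dio3, spans chromosome 12 from 109452485 to 110281097, or 828613 bases (coordinates 1-based on mm10). Meg3 lies from 109540996 to 109571729, Rtl1 from 109564900 to 109604418, Rian from 109603945 to 109661716, Mirg from 109734981 to 109749458 and Dio3 from 110279230 to 110281097. The spans of Meg3 and Rtl1 share 6830 bases and those of Rtl1 and Rian share 474, in the RefSeq annotation of GRCm38.p6. The library kit does not mark strand, so reads from the shared stretches cannot be told apart, and the low Rtl1 counts in particular are uncertain.

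The promoters of Meg3, Dlk1 and Dio3 are shown because those of Dlk1 and Dio3 lie in part or wholly under Suz12 peaks and that of Meg3, the start of the maternal noncoding unit, does not. Each runs from 250 bases before to 50 bases after a gene start of the RefSeq table for GRCm38.p6, 5′ to 3′ on the plus strand, with CG dinucleotides in capitals. Meg3 is at chr12:109540746-109541045, Dlk1 at chr12:109452573-109452872 and Dio3 at chr12:110278980-110279279. The table's start for Dlk1 is base 109452823, which lies 338 bases inside the span given above. For Meg3 and Dio3 the start is the first base of the span.
Meg3: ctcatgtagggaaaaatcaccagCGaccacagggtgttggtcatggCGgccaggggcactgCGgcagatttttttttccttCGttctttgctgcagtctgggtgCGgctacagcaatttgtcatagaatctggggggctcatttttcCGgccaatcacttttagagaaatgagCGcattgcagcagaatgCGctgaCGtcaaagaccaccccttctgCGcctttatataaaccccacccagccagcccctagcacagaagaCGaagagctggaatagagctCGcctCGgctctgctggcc
Dlk1: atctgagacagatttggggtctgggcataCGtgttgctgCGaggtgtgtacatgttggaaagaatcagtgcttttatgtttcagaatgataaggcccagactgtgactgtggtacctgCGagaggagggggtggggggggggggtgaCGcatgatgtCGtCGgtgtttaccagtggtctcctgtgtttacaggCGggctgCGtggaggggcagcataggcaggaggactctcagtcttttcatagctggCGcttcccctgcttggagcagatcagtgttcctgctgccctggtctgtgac
Dio3: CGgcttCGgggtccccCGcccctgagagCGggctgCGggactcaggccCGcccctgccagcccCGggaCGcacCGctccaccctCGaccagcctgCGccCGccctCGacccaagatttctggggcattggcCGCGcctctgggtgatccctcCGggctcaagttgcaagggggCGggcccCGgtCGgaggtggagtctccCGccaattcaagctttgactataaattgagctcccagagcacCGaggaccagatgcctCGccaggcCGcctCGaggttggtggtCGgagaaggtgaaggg

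The Dio3 promoter held 25 CG dinucleotides, more than 81.6% of the 32851 promoters of the table, whose median was 7. Meg3 held 13 and Dlk1 9. The table gives Meg3 another start, whose window (109545148 to 109545447) held 1 CG and none of the motifs below. The window at the start of Rian, which is transcribed downstream of Meg3, held 0, and that of Mirg 10. Promoters were in the table for 5 of the 6 genes. In the Meg3 promoter TGACGTCA, the cAMP response element, began 57 bases before the gene start, and was found in 1.79% of all promoters of the same length. Meg3 and Dio3 both held TATAAA, the core of the TATA box, found in 13.6% of promoters, and in Meg3 it was present on both strands in overlapping copies. Meg3 held TGCCGC, the letters that the imprint protector ZFP57 reads when they are methylated, on the minus strand, and so did 11.6% of all promoters. Both strands were searched, and no other matches overlapped. The Dlk1 promoter held none of the 3 motifs. A match is a description of the letters only.

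Suz12, the scaffold subunit of PRC2, had peaks at both ends of the domain and 1 between Mirg and Dio3. Of the 6 genes, 2 had a peak within 1 kb, and these were Dlk1 and Dio3. A peak of 4833 bp, wider than 97.8% of the 7480 peaks, covered all of Dio3 and its promoter (110277119 to 110281951). A peak of 2115 bp (109452697 to 109454811) began 212 bases inside the span of Dlk1 and covered 176 of the 300 bases of the window shown. A window placed at the first base of the span would have 0 bases under a peak. Another peak, of 823 bp, lay inside Dlk1, and 1 of 454 bp lay before it (109450081 to 109450534). The peak between Mirg and Dio3 (110186776 to 110190251) was 3476 bp wide, wider than 95.1% of the peaks. Over all promoters of the table, 13.3% touched a peak. From 109460296 to 110186775, a stretch of 726 kb that holds Meg3, Rtl1, Rian and Mirg, there was no peak. Such stretches are not rare, since 11.1% of the gaps between neighbouring peaks were longer. The nearest peak lay 80.7 kb from Meg3, 144 kb from Rian and 275 kb from Mirg. The authors' list gives coordinates without a score, and it comes from another strain than the RNA.

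**Figure D1:**
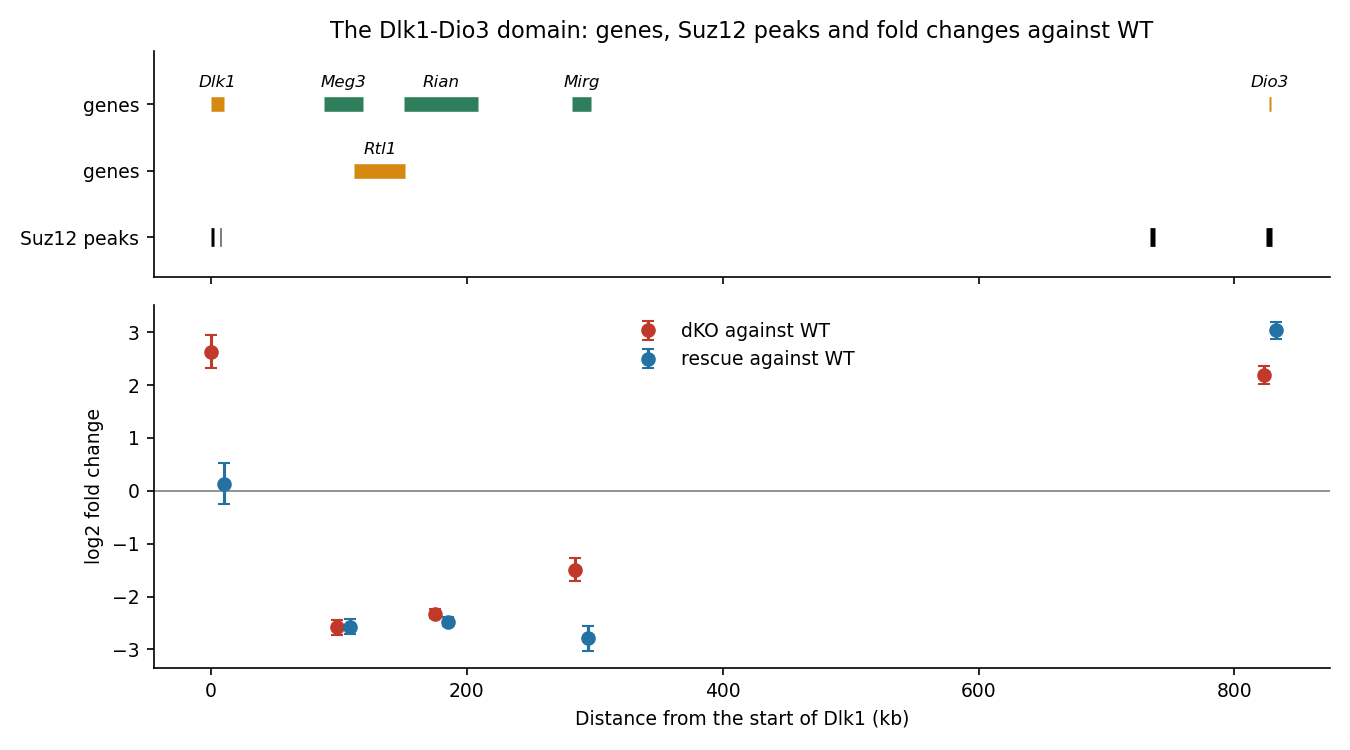
Map of the domain by distance from the start of Dlk1 in kb: noncoding RNA genes in green, protein genes in orange and Suz12 peaks in black, with log2 fold changes against WT below (points, SE bars; dKO and rescue points are set 5 kb to either side of the gene's centre). The tested genes without peaks (Meg3, Rian, Mirg) lie below 0 in both comparisons. Dlk1 is above 0 in dKO and near 0 in rescue, where it did not pass, and Dio3 is above 0 in both. Rtl1, also without a peak, was not tested and has no points.

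Libraries held 12457622 to 36009529 counts, and 14145 genes, 5 of the 6 members among them, passed the filter on low counts. Rtl1 did not. Levels are CPM, counts scaled to library size with TMM factors. They are compared between groups and never between genes, since they are not per gene length. A gene was called, and is said to have risen or fallen, at an edgeR adjusted p under 0.05 (quasi-likelihood test, Benjamini-Hochberg over the tested genes). As a check of the labels, Ezh1 was at 49.9 ± 3.02 CPM in WT, 1.99 ± 0.301 in dKO and 2.88 ± 0.540 in rescue (SD, n = 3 libraries), so that rescue cells stayed low in Ezh1. Ezh2 was at 310 ± 2.98, 199 ± 13.4 and 560 ± 14.1 CPM, and gene counts cannot show an exon deletion or tell an introduced transcript from the native one.

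In dKO against WT 3 members fell, Meg3, Rian and Mirg, and 2 rose, Dlk1 and Dio3. The 3 noncoding RNAs thus moved one way and the 2 tested protein genes the other. For all 5 the libraries of the groups did not overlap. The same comparison called 64.7% of all tested genes, 31.0% as lower and 33.7% as higher, and the groups did not overlap for 68.0%, so that being called is common here and the sizes and directions say more than the count. The median log2 fold change was -1.49 over the 5 tested members and -0.0026 over all tested genes.

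Meg3 is a long noncoding RNA and the first transcript of the maternal unit. The WT libraries held 16.1, 13.9 and 14.03 CPM, the dKO libraries 2.49, 2.77 and 2.08, and the rescue libraries 2.32, 2.85 and 2.25. All WT libraries lay above all others, and the dKO and rescue libraries overlapped. Meg3 fell by 2.58 ± 0.148 on the log2 scale in dKO against WT (SE, edgeR adjusted p = 3.49e-08), to 0.167 of the WT level. Of all tested genes, 0.502% had a lower fold change. In these bulk samples, fewer cells that express a gene and less RNA per cell cannot be told apart.

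Rian, the host of a snoRNA cluster, gave the most counts of the members (6428 in all). WT libraries had levels of 75.1, 78.4 and 81.2 CPM, dKO libraries of 16.3, 16.7 and 13.97, and rescue libraries of 14.4, 13.2 and 14.5. Again the WT libraries stood apart and the other groups overlapped. It fell by 2.33 ± 0.0837 in dKO against WT (log2, SE, edgeR adjusted p = 9.06e-10), a 5.01-fold lower level.

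Mirg hosts microRNAs at the far end of the maternal unit. WT gave 4.06, 3.92 and 3.97 CPM, dKO gave 1.13, 1.92 and 1.12, and rescue gave 0.486, 0.560 and 0.692. Here the 3 groups were separate, in the order WT, dKO, rescue, and dKO replicate 2 was the highest of its group. The log2 change in dKO against WT was -1.49 ± 0.221 (SE, edgeR adjusted p = 8.9e-05). Relative to Meg3 in the same library, Mirg stood higher in dKO than in WT by 1.04 on the log2 scale. For Rian relative to Meg3 that difference was 0.25. Each had an exact two-sided permutation p = 0.1, the smallest that 3 libraries against 3 can give, and an adjusted p = 0.136 over the 15 ratio tests, so neither passed.

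**Figure D2:**
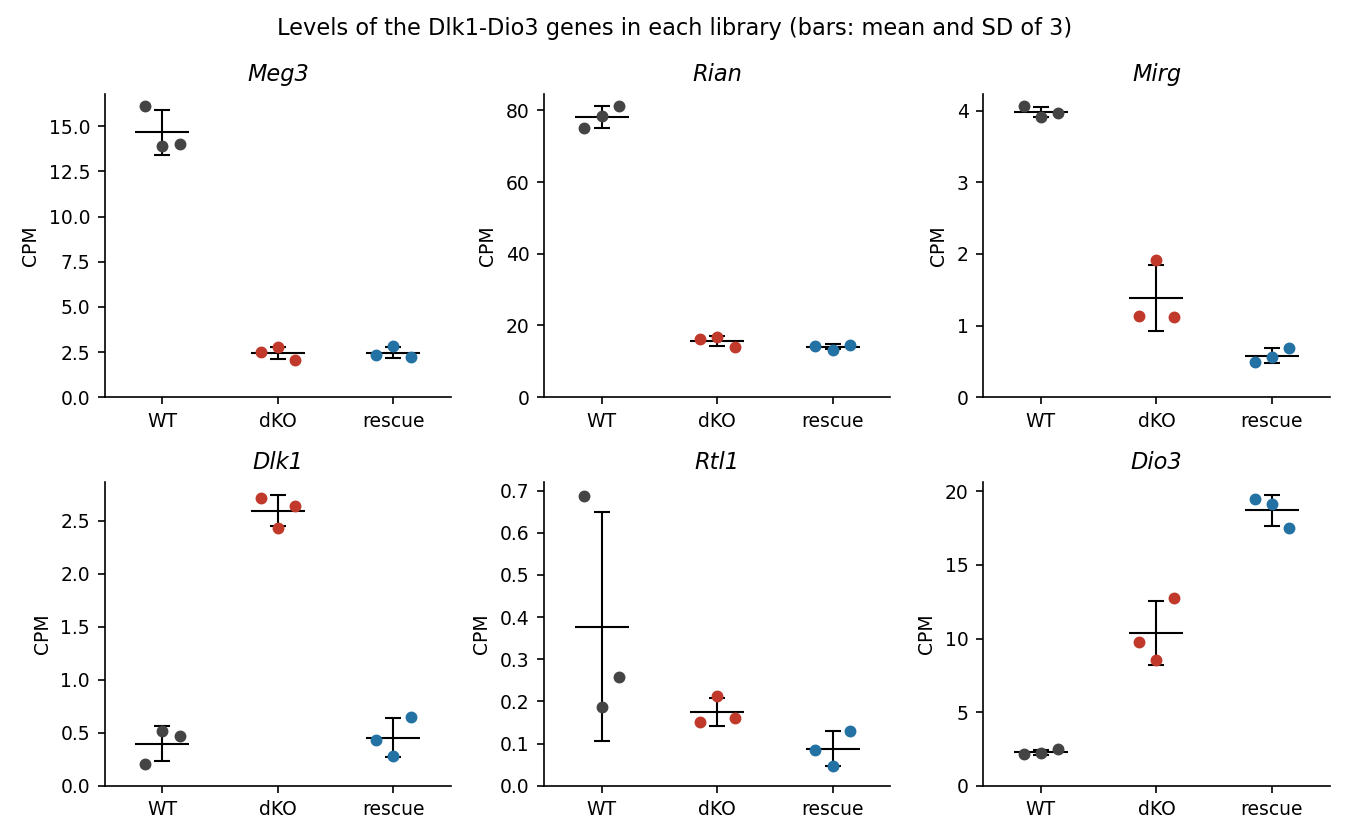
Level of each of the 6 genes in each library (CPM, linear axes from 0, scaled separately), with 3 points per group, and the mean and SD as black bars. Meg3 and Rian are high in the WT libraries only, Mirg steps down over the 3 groups, Dlk1 is high in dKO only, and Dio3 steps up from WT (2.27 CPM) to dKO (10.4) and rescue (18.7).

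Dlk1 encodes a membrane protein related to the Notch ligands, known as an inhibitor of fat-cell differentiation. It was low in WT at 0.207, 0.513 and 0.464 CPM, or 23 counts over the 3 libraries. In dKO it stood at 2.71, 2.43 and 2.64 CPM (159 counts), and in rescue at 0.429, 0.280 and 0.648 (36 counts). The dKO libraries lay above all others, and WT and rescue overlapped. Dlk1 rose by 2.63 ± 0.308 in dKO against WT (log2, SE, edgeR adjusted p = 1.28e-05), a 6.19-fold higher level. Even so, 6.41% of all tested genes had a higher fold change.

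Rtl1 is a protein gene derived from a retrotransposon that is known for its role in the placenta, and microRNAs are read from its antisense strand. The WT libraries had 10, 4 and 5 counts, those of dKO 2, 5 and 4, and those of rescue 3, 1 and 3. Per total count the dKO to WT ratio was 0.570 (exact 95% interval 0.245 to 1.26), and the rescue to WT ratio was 0.257 (0.0913 to 0.638), both for counting error only. WT replicate 1 held 10 of the 19 WT counts. With no filter on low counts, edgeR gave Rtl1 a log2 change of -1.92 in rescue against WT (adjusted p = 0.0237), and DESeq2 gave -2.04 (adjusted p = 0.0528). In dKO against WT the values were -0.97 (adjusted p = 0.189) and -1.06 (0.284). At this depth no change in dKO was detectable, and Rtl1 was not seen to rise with Dlk1 and Dio3.

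Dio3 encodes the deiodinase that inactivates thyroid hormone. Its level was 2.13, 2.19 and 2.48 CPM across WT, then 9.79, 8.53 and 12.8 across dKO, and 19.5, 19.1 and 17.5 across rescue. The 3 groups were separate, in the order WT, dKO, rescue, and dKO replicate 3 was the highest of its group. Dio3 rose by 2.19 ± 0.170 in dKO against WT (log2, SE, edgeR adjusted p = 4.14e-07), a 4.57-fold higher level. Among all tested genes 8.99% had a higher fold change.

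Rescue against dKO asks what differs once EZH2 is expressed again, and it shares the dKO libraries with the comparison above. Here 1 member rose, Dio3, 2 fell, Dlk1 and Mirg, and 2 did not pass, Meg3 and Rian. The comparison called 70.3% of all tested genes, 32.1% as higher and 38.2% as lower. Dlk1 fell by 2.50 ± 0.281 (log2, SE, edgeR adjusted p = 7.65e-06), a 5.65-fold lower level. Mirg fell by 1.30 ± 0.275 (adjusted p = 0.00109), and was thus lower in rescue than in dKO, where it had already fallen against WT. Dio3 rose by 0.85 ± 0.134 (adjusted p = 0.00013), a 1.80-fold higher level on top of its rise in dKO. For these 3 the groups did not overlap, as for 71.7% of all tested genes.

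Meg3 differed between rescue and dKO by 0.011 on the log2 scale, with a 95% interval of -0.35 to 0.38 (edgeR adjusted p = 0.975). The interval leaves out a return to the WT level, which would be a rise of 2.58. Rian differed by -0.15 (-0.34 to 0.04, edgeR adjusted p = 0.138). Without dKO replicate 3 the Rian difference passed, at -0.23 (adjusted p = 0.0161), and it passed with total counts in place of TMM scaling, at -0.28 (adjusted p = 0.0124). The latter setting moves the median of all tested genes in this comparison from -0.04 to -0.18, and the difference of Rian is to be read against that shift.

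Rescue against WT compares the cells labelled as rescued with wild type. Against WT, 3 members fell (Meg3, Rian and Mirg), 1 rose (Dio3) and 1, Dlk1, did not pass. The comparison called 54.1% of all tested genes, 27.3% as lower and 26.8% as higher. Meg3 fell by 2.57 ± 0.143 (log2, SE, edgeR adjusted p = 1.35e-07), a 5.95-fold lower level, and Rian by 2.48 ± 0.083 (3.82e-09), a 5.56-fold lower level. Mirg fell by 2.79 ± 0.244 (adjusted p = 3.05e-06), a 6.93-fold lower level, so the 3 noncoding RNAs ended between 5.56-fold and 6.93-fold below WT. Dio3 rose by 3.04 ± 0.164 (adjusted p = 1.09e-07), an 8.21-fold higher level and the 66th highest fold change of the 14145 tested genes. The log2 difference of Dlk1 was 0.13 with a 95% interval of -0.71 to 0.98 (adjusted p = 0.803), so its counts leave room for a difference in either direction. For the 4 called members the groups did not overlap, as for 65.3% of all tested genes.

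**Figure D3:**
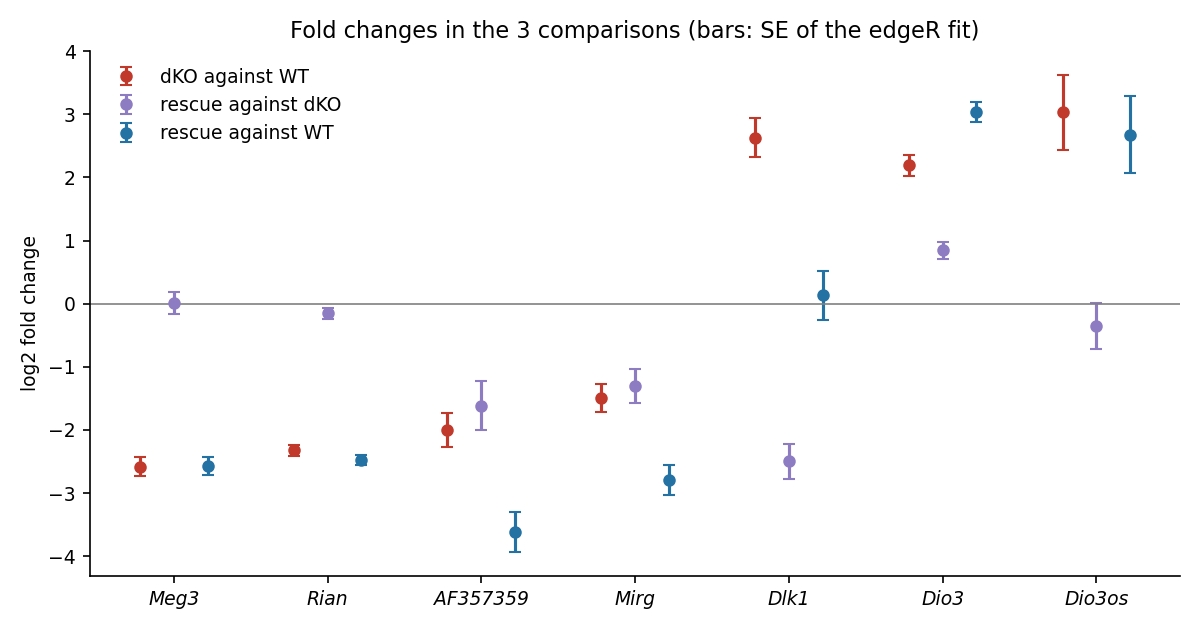
Log2 fold changes (points) with the SE of the edgeR fit (bars) for the 5 tested members, the snoRNA gene AF357359 inside Rian and the antisense gene Dio3os, in the 3 comparisons. Meg3 and Rian are near 0 only in rescue against dKO, Dlk1 is near 0 only in rescue against WT, and Dio3 is above 0 in all 3.

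The count of each gene was also set against Meg3 in the same library, which removes the scaling of libraries. These log2 ratios are of counts plus 1 and are compared between groups only. Dlk1 to Meg3 averaged -5.10 ± 0.680 in WT, 0.091 ± 0.264 in dKO and -2.41 ± 0.711 in rescue (SD, n = 3). The ratio was thus higher in dKO than in WT by 5.19 and remained 2.68 above WT in rescue. In rescue against WT Meg3 itself fell by 2.57 and Dlk1 was at 0.13 without passing, so that ratio does not show a raised Dlk1. Dio3 to Meg3 went from -2.66 ± 0.200 in WT to 2.05 ± 0.504 in dKO and 2.91 ± 0.166 in rescue (SD, n = 3), which is 5.57 above WT in rescue. In the 4 differences of the Dlk1 and Dio3 ratios from WT the libraries were separate. Yet an exact permutation test of 3 against 3 cannot go below p = 0.1, and the adjusted p was 0.136 for each. Rian to Meg3 was 2.41 ± 0.171, 2.66 ± 0.081 and 2.50 ± 0.261 in WT, dKO and rescue (SD, n = 3). Its difference between rescue and WT, 0.08, was smaller than the spread within these groups. Rtl1 to Meg3 was above WT by 1.82 in dKO and by 0.93 in rescue (permutation test, adjusted p = 0.136 and 0.25). Rtl1 itself had 19 counts in WT, 11 in dKO and 7 in rescue, so this ratio does not show a rise of Rtl1.

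**Figure D4:**
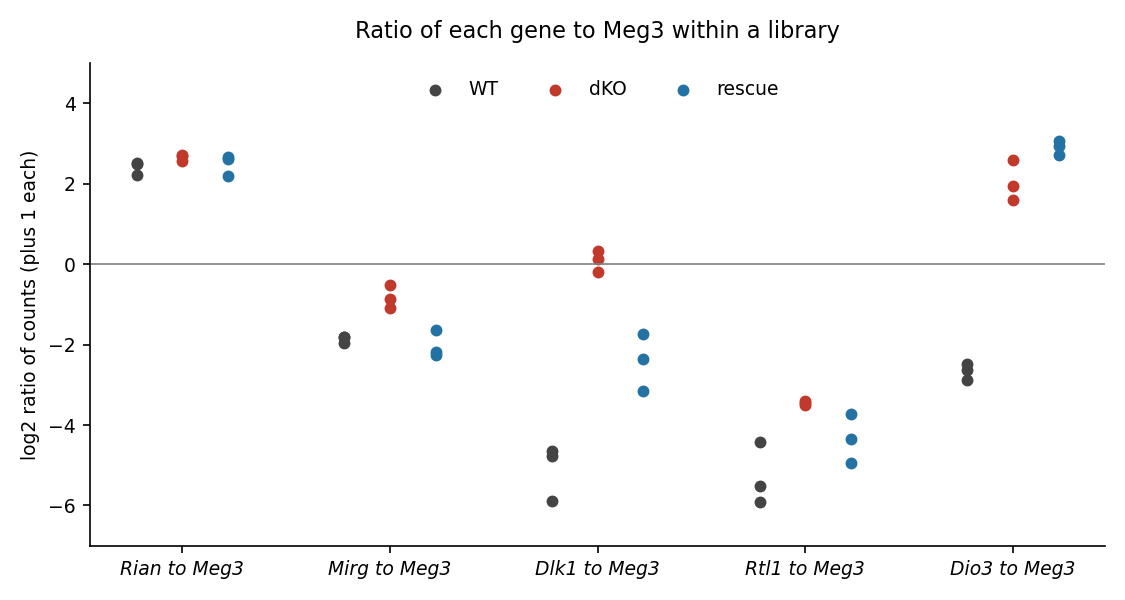
Log2 ratio of the counts (plus 1 each) of 5 genes to those of Meg3 in the same library, 1 point per library, by group. The Dlk1 and Dio3 ratios are lowest in WT, with WT means of -5.10 and -2.66, whereas the Rian ratio stays between 2 and 3 in all groups.

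The count tables hold 71 further genes inside the domain, and 3 of them had at least 10 counts over the 9 libraries. AF357359, a 30-base snoRNA gene inside Rian (109650709 to 109650738), gave 3.31, 3.59 and 2.11 CPM for WT, with 0.829, 0.597 and 0.838 for dKO and 0.229, 0.327 and 0.173 for rescue. The 3 groups were separate, in the same order as for Mirg. It fell by 2.00 ± 0.273 in dKO against WT (log2, SE, edgeR adjusted p = 4.56e-05) and by a further 1.62 ± 0.387 in rescue against dKO (adjusted p = 0.00256), where Rian itself did not pass. Reads over so short a gene may belong to the host transcript or to a longer precursor, and its counts are not a measure of the mature snoRNA. AF357426, another snoRNA gene inside Rian, had 10 counts in WT, 1 in dKO and 2 in rescue. Per total count its dKO to WT ratio was 0.0985 (exact 95% interval 0.00227 to 0.692).

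Dio3os, which is read from the strand opposite to Dio3 and starts beside it (110275384 to 110278068), had 2, 1 and 0 counts in the WT libraries, with 7, 11 and 12 for dKO and 12, 9 and 9 for rescue. The WT libraries lay below all others. Per total count the dKO to WT ratio was 9.85 (exact 95% interval 3.06 to 50.4) and the rescue to WT ratio was 6.97 (2.17 to 35.7). Dio3os rose against WT in dKO (edgeR adjusted p = 0.000744) and in rescue (0.00281), and its log2 difference of -0.36 between rescue and dKO did not pass (adjusted p = 0.399). Dio3os passed the filter on low counts through the dKO libraries only, where it was highest, so these p-values are not separate support for a rise. The fitted log2 rise of 3.04 in dKO became 4.03 without WT replicate 1, and that of 2.68 in rescue became 3.68. Its promoter held 53 CG dinucleotides, more than 99.5% of all promoters, and lay wholly under the Suz12 peak that covers Dio3. Without strand, reads of Dio3os and of an extended Dio3 transcript cannot be told apart.

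Of the 61 microRNA genes of the domain that the tables list, 49 had no count in any library. The other 12 had 19 counts together, and none had more than 3. PolyA libraries of this kind do not measure mature microRNAs, so these rows show nothing about microRNA levels.

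Genes outside the domain were read next to see how far the changes reached. Begain, the nearest protein gene before Dlk1, lies 384 kb away and was at 0.54 ± 0.318 on the log2 scale in dKO against WT (SE, edgeR adjusted p = 0.156). Ppp2r5c, the nearest after Dio3 at 166 kb, was at 0.09 ± 0.0521 (adjusted p = 0.163). It passed with total counts, at 0.223 (adjusted p = 0.00214), and with a mean of at least 2 CPM required, at 0.151 (0.0236). Ppp2r5c fell by 0.39 in rescue against WT (8.22e-05). Both are named for their position. Of 19 flanking genes, all tested, 8 rose, 2 fell and 9 did not pass in dKO against WT, with a median log2 change of 0.17. Traf3, a signalling adaptor, rose by 1.39, Ankrd9 by 0.72 and the DNA replication factor Cinp by 0.44, while Wdr25 stood at 0.05 and did not pass. In rescue against WT 6 rose, 3 fell and 10 did not pass (median 0.06). Over the 82 tested genes within 5 Mb on either side the median was 0.33 in dKO against WT and 0.08 in rescue against WT, against -0.0026 and 0.0016 over all tested genes. Of these 82 genes 45 rose and 14 fell in dKO against WT, where 33.7% of all tested genes rose and 31.0% fell. In rescue against WT 29 rose and 20 fell, where 26.8% of all tested genes rose and 27.3% fell.

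Genes that keep imprints or write and remove DNA methylation were described because the parental copies of imprinted domains differ in DNA methylation. Of 20 such genes, all tested, 5 rose, 14 fell and 1 did not pass in dKO against WT (median -0.39). Over all tested genes 33.7% rose and 31.0% fell in that comparison. Among the 14, the call of Setdb1 (-0.50, adjusted p = 0.0496) was kept in 7 of 17 alternatives, and that of Dnmt3a (-0.26) was lost with total counts (adjusted p = 0.155). Of the 20 genes, 8 rose, 4 fell and 8 did not pass in rescue against WT (median 0.16). There 26.8% of all tested genes rose and 27.3% fell. In rescue against dKO 12 rose, 5 fell and 3 did not pass (median 0.54), where 32.1% of all tested genes rose and 38.2% fell. Among the 12, the call of Tet1 (0.69, edgeR adjusted p = 0.0347) was kept in 11 of 17 alternatives. Of the 6 PRC2 core genes, 1 rose and 5 fell in dKO against WT (median -0.76), and 6 rose in rescue against dKO (median 0.66). In rescue against WT 3 rose, 2 fell and 1 did not pass. The 6 include Ezh1 and Ezh2, which the design itself altered, so these counts are in part set by the design. For Ezh1 the rescue and dKO libraries overlapped. Dnmt3l, the cofactor of the de novo methyltransferases, had 15.8, 17.5 and 18.4 CPM across WT, with 285, 281 and 266 across dKO and 225, 193 and 218 across rescue. It was thus high in both groups in which Meg3 was low, and it rose by 4.01 ± 0.0824 in dKO against WT (log2, SE, edgeR adjusted p = 2.47e-11) and by 3.62 in rescue against WT (2.13e-10). Aff3, a transcription elongation factor known to bind the control region of this domain, rose by 2.61 and by 1.64 against WT. Dppa3, a factor that guards maternal methylation in the early embryo, was at 77.5 ± 3.98 CPM in WT, 61.5 ± 7.30 in dKO and 28.9 ± 2.89 in rescue (SD, n = 3). Its fall of 0.34 in dKO against WT was lost with total counts in place of TMM (adjusted p = 0.0778), whereas it fell by 1.43 in rescue against WT (4.62e-07). The part of these genes in the members' levels was not tested.

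Other genes of the same list were low in dKO and not in rescue. Zfp57, the zinc-finger protein that binds methylated imprint control regions, fell from 168 ± 1.84 to 118 ± 9.74 CPM in dKO and was at 356 ± 8.77 in rescue (SD, n = 3), a rise of 1.09 against WT. Zfp281, a transcription factor that can recruit TET1, fell by 0.75 in dKO and stood at 0.07 in rescue against WT without passing. Uhrf1 and Dnmt1, which copy methylation after replication, fell by 0.79 and 0.59 in dKO and stood at 0.03 and -0.09 in rescue against WT, where neither passed. Tet2, which oxidises methylated cytosine, changed by -0.91 in dKO and by 0.39 in rescue, each against WT (log2, both called), and Tet1 was at -0.20 in dKO (adjusted p = 0.518).

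**Figure D5:**
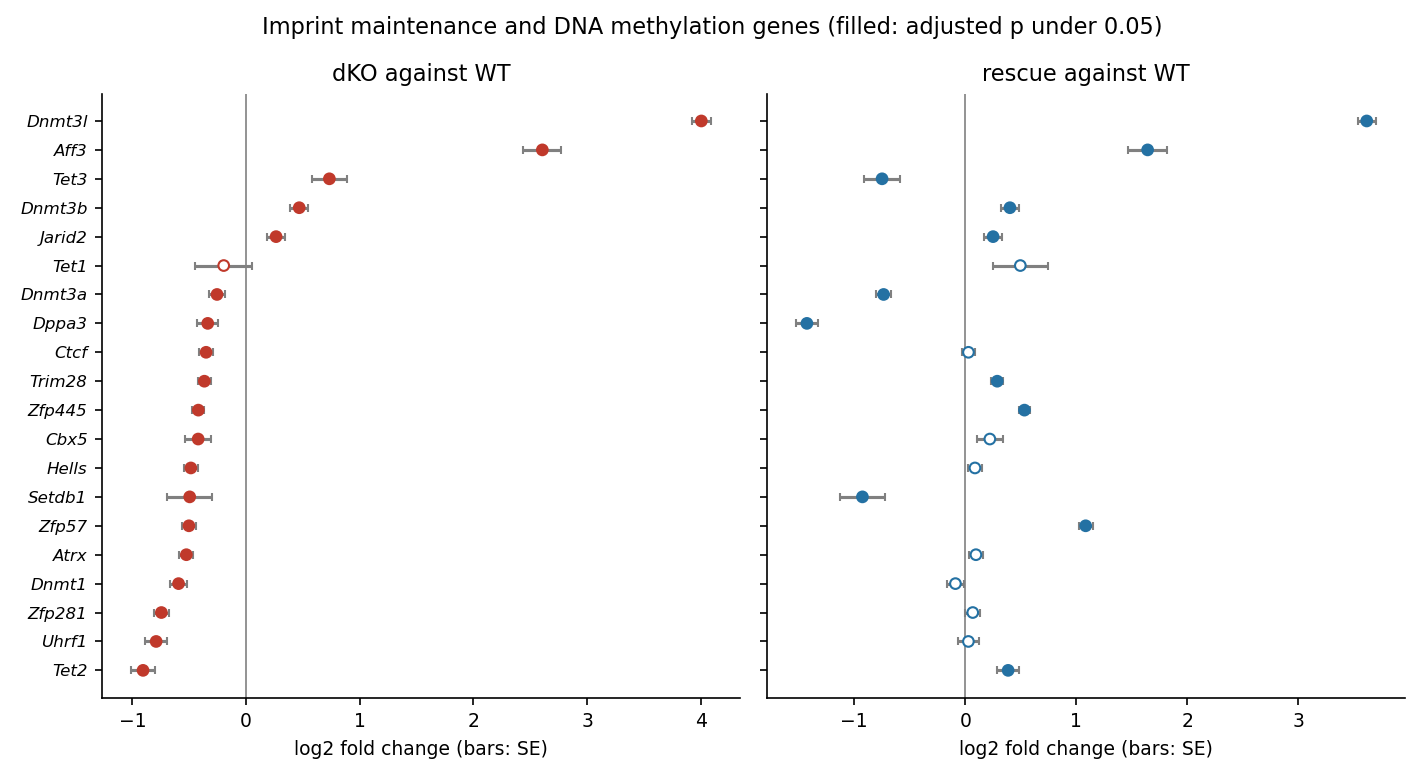
Log2 fold changes (points) with SE (bars) of 20 imprint maintenance and DNA methylation genes in dKO against WT (left) and rescue against WT (right), ordered by the left panel, with filled points for adjusted p under 0.05. Dnmt3l is the highest in both panels, at 4.01 and 3.62, and Dppa3 is the lowest in rescue, at -1.43.

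Imprinted genes of other domains were counted for comparison. Of 17 tested among 19 maternally expressed genes that the count tables hold, 8 rose, 4 fell and 5 did not pass in dKO against WT (median 0.31), and 4 rose, 4 fell and 9 did not pass in rescue against WT (median -0.11). Igf2r, which clears the growth factor IGF2, went from 212 ± 5.86 CPM in WT to 467 ± 63.1 in dKO and 196 ± 8.41 in rescue (SD, n = 3). Osbpl5 rose by 3.50 and the cell-cycle inhibitor Cdkn1c by 3.19 in dKO, and Slc22a18 was at 0.07 without passing. Of 22 tested among 26 paternally expressed genes in the tables, 11 rose, 6 fell and 5 did not pass in dKO against WT (median 0.20), and 7 rose, 9 fell and 6 did not pass in rescue against WT (median -0.13). Sfmbt2 rose by 3.51 in dKO, Peg3 fell by 1.42 and Impact by 1.10, and Mcts2 stood at -0.01 without passing. Over all tested genes 33.7% rose and 31.0% fell in dKO against WT, and 26.8% rose and 27.3% fell in rescue against WT. Calls in both directions are thus common here, and these counts give no result about maternal or paternal origin.

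Genes of the pathways in which the Dlk1 and Dio3 proteins act were counted as well. Over all tested genes 33.7% rose and 31.0% fell in dKO against WT, and 26.8% rose and 27.3% fell in rescue against WT. Of 21 tested among 25 Notch pathway genes, 7 rose, 6 fell and 8 did not pass in dKO against WT (median 0.07), with the ligand Jag2 at 1.87, the target Hey1 at 2.59 and the target Hes1 at -0.90, all called, and the ligand Dll1 at -0.03 without passing. In rescue against WT 7 rose, 6 fell and 8 did not pass (median -0.08). Of 11 tested among 15 genes of thyroid hormone handling in the tables, 7 rose, 0 fell and 4 did not pass in dKO against WT (median 0.44), and 5 rose, 2 fell and 4 did not pass in rescue against WT (median 0.06). Slc16a10, an amino acid and thyroid hormone transporter, went from 6.12 ± 0.195 CPM in WT to 43.7 ± 1.45 in dKO and 7.66 ± 0.491 in rescue (SD, n = 3). Crym, which binds thyroid hormone in the cytosol, rose by 2.17 and the receptor partner Rxra by 0.88 in dKO, and Secisbp2, needed to make selenoproteins such as Dio3, stood at -0.05 without passing. The activating deiodinase genes Dio1 and Dio2 did not pass the filter. Of the relatives of Rtl1, 7 genes, Peg10 among them, were found in the tables by the names searched, and 10 of the names, some of them synonyms of the 7, were not. Of the 7, 4 were tested, and 3 rose and 1 fell in dKO against WT. Peg10 fell by 1.90 (adjusted p = 0.00104), or by 2.52 without dKO replicate 3, Ldoc1l rose by 0.95 and Ldoc1 by 3.21, or by 4.11 without WT replicate 3. Ldoc1 averaged 0.107 CPM in WT, 1.07 in dKO and 0.231 in rescue. It passed the filter through dKO only, so its call is not separate support for a rise.

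Markers of ES cells and of other cell types were summed in each library. The 8 ES markers, Pou5f1 and Nanog among them, summed to 6288 to 6431 CPM in WT, 5721 to 5903 in dKO and 7769 to 7937 in rescue, and none was at 0. The sums weigh abundant genes most, such as Tfcp2l1 at 1582 CPM in WT and 1633 in dKO, where it did not pass. In dKO against WT 5 of the 8 fell, Pou5f1 and Nanog among them, and 2 rose, where 31.0% of all tested genes fell. In rescue against WT 6 rose, 1 fell and 1 did not pass, where 26.8% of all tested genes rose. The 10 fibroblast markers summed to 6.70 to 8.39 CPM in WT, 58.9 to 64.9 in dKO and 14.7 to 15.6 in rescue. Of these, Col3a1, Postn, Dcn, Lum and Twist2 were at 0 in WT, Col3a1 and Lum at 0 in dKO, and Postn, Dcn and Lum at 0 in rescue. The 9 primitive endoderm markers summed to 79.5 to 83.1 CPM in WT, 230.3 to 257.6 in dKO and 84.3 to 92.3 in rescue, the 8 trophoblast markers to 222 to 236, 296 to 327 and 173 to 180, the 8 neural markers to 59.7 to 67.3, 144 to 158 and 126 to 133, and the 6 muscle markers to 14.9 to 15.9, 28.0 to 29.3 and 5.93 to 7.13. Tfap2c, which gave most of the trophoblast sum in WT at 167 CPM, was at 87.1 CPM in rescue. Of the 8 trophoblast markers 4 rose, 2 fell and 2 did not pass in rescue against WT (median 1.01). There 26.8% of all tested genes rose and 27.3% fell. Dcx of the neural list and Myf5 of the muscle list were at 0 in all groups, and Neurog2, Myod1 and Actc1 were at 0 in WT. In dKO against WT, where Dlk1 was higher, 33.7% of all tested genes rose. So did 5 of 5 tested fibroblast markers (of 10 listed), 7 of 8 of primitive endoderm (of 9) and 5 of 8 of trophoblast (of 8). Of the neural markers 2 of 4 tested rose (of 8 listed), and of the muscle markers 2 of 2 (of 6). Markers left untested were too low for the filter, so these shares leave out markers that stayed low. Pax7 of the muscle list averaged 0.0942 CPM in WT, 1.18 in dKO and 0.0934 in rescue. It entered the test through its dKO level only, so its rise is not separate support. Eomes of the trophoblast list fell by 0.24 (edgeR adjusted p = 0.0387). The neural sums rest on different genes in the groups. Nes, a filament gene of progenitors, rose from 17.7 CPM in WT to 102 in dKO and was at 22.6 in rescue, while the tubulin gene Tubb3 fell from 31.1 to 19.9 and was at 93.5 in rescue, and Sox1 was at -0.29 in dKO against WT without passing. The part of these markers in the Dlk1 level was not tested.

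Genes with the pattern most like each member were taken by Pearson's correlation of log2 CPM over the 9 libraries, among 11215 genes outside the domain, as a description. The libraries fall into 3 groups, so these values mainly reflect the order of the groups. Meg3 was followed most closely by Gadd45a, a stress-response gene, Gpx7 and Map4k4 (r from 0.994 to 0.995). Rian was nearest to Gadd45a, Sdha and Ank3 (0.995), and Mirg to Plxnb2, Ckap5 and Ttc5 (0.989 to 0.997). For Dlk1 they were the germ-granule gene Tdrd7, Igsf21 and Lysmd2 (0.987 to 0.993), and for Dio3 the chaperone gene Dnajb11, Rnf145 and Pigl (0.995 to 0.996). Gadd45a, for example, went from 19.3 CPM in WT to 7.02 in dKO and 7.09 in rescue, and Tdrd7 from 0.922 to 6.35 and 1.12. None of these genes lies on chromosome 12.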

How the data were processed

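Counts of reads per gene were deposited by the authors without normalization, 1 file per RNA library. The submitters' processing notes name Trimmomatic, STAR 2.4.0, HTSeq and the build mm10, and per the labels' protocols libraries came from the TruSeq RNA Library Prep Kit v2. Annotation and counting mode were not given in the sources used here. The Suz12 file, deposited by the authors, holds other values, namely peak coordinates with no score, and the peak caller is not given in the sources used here. Groups follow the sample titles. 61 of the 71 samples were not analysed here, and 2 of these, whose title and antibody label differ, were put in no group.

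A single model of all 9 libraries was fitted in edgeR 4.0.16 (R 4.3.3) after filterByExpr by group and TMM, using robust glmQLFit and glmQLFTest, with 6 residual degrees of freedom. The SE is the log2 fold change over the root of the F statistic. Alternatives were RLE factors, total counts, 2 other filters, DESeq2 1.42.0, limma-voom 3.58.1, fits of 2 groups, the replicate number as a block and leaving out each library. A count of 0 allows a level of 0.0833 to 0.241 CPM, by depth (3 counts of the total), for counting error only. Symbols were matched to the RefSeq table of GRCm38.p6, where 22859 matched directly, 1246 through a synonym and 117 had no match. Named from each list are at most 3 genes, by smallest adjusted p in dKO against WT, and at most 1 that missed the threshold, with further genes of the imprint maintenance and marker lists (chosen after their values were seen). The members and lists were chosen with earlier results of these data known.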

Additional observations from a re-analysis of the deposited data

How the results depend on the processing

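Of 249 fold changes of the members recomputed under alternatives, 241 kept their direction and their side of the threshold. Every called change of a tested member kept both in each alternative that could test it. With a mean of at least 2 CPM required, Dlk1 and Mirg left the test, so that 1 member rose in dKO against WT and 0 fell in rescue against dKO. The uncalled difference of Meg3 between rescue and dKO turned negative with total counts (-0.12), with that stricter filter (-0.042) and when dKO replicate 3 or rescue replicate 2 was left out, with a range of -0.12 to 0.13 over the left-out libraries. Rian in rescue against dKO passed with total counts (-0.28) and ranged from -0.23 to -0.095 with 1 library left out. Dlk1 in rescue against WT ranged from -0.16 to 0.36 with 1 library left out. Total counts in place of TMM moved the median of all genes to 0.13 in dKO against WT and -0.18 in rescue against dKO. No count of called genes over the whole table moved by more than 1.5 times.

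Replicate numbers are shared by the groups. Samples with the same number deviated together weakly or not at all (correlations of -0.11 to 0.20 over 9 pairs, 2 of them above 0.1). Pairs of different number ranged from -0.27 to 0.19. With 3 libraries per group these values cannot show whether samples of 1 number shared a culture or a run, and the labels do not say. With the replicate block, 15 of 15 fold changes of the members kept their call and direction, with Meg3 at -2.58 and Dio3 at 2.18 in dKO against WT. The other named genes had 2480 recomputed fold changes, of which 2378 kept direction and call, 36 lost the call, 28 gained it and 38 changed sign. Those that changed sign were small, uncalled differences. In dKO against WT, Dll1 turned to 0.104 with total counts, 0.047 with limma-voom and 0.00037 with the replicate block. Mcts2 turned to 0.126 and 0.053, and Secisbp2 to 0.082 and 0.0095, with total counts and the stricter filter. In rescue against dKO these settings gave -0.108 and -0.027 for Secisbp2 and -0.099 and -0.018 for Wdr25, and total counts gave -0.0087 for Begain. Jarid2 there turned to 0.011 with RLE factors, 0.0078 with no filter, 0.018 with DESeq2 and 0.025 in the fit of 2 groups. With 1 library left out, the ranges in dKO against WT were -0.385 to 0.342 for Dll1, -0.093 to 0.073 for Mcts2, -0.324 to 0.291 for Slc22a18, -0.566 to 0.034 for Tet1 (called without dKO replicate 3) and -0.013 to 0.144 for Wdr25. In rescue against dKO they were -0.058 to 0.312 for Begain, -0.125 to 0.055 for Dnmt3b, -0.064 to 0.090 for Jarid2, -0.0082 to 0.076 for Secisbp2 and -0.051 to 0.115 for Wdr25. In rescue against WT they were -0.079 to 0.092 for Cinp, -0.00023 to 0.048 for Ctcf and -0.067 to 0.017 for Secisbp2. At 7 to 19 counts per group, depth limits what can be said of Rtl1. The microRNA rows are too low for any comparison.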
